A study of Mus musculus with 6 samples.

Results

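Cholesterol synthesis, uptake and efflux were examined in epididymal white adipose tissue, the visceral fat depot beside the testis, of male mice carrying the patDp/+ genotype and of wild type males. The set comprised 29 genes, found by the gene name that the array's scanner files give each probe (Msmo1 is written there under its older name Sc4mol). It was divided by role into 19 genes of synthesis, 4 of control through SREBP2, 4 of uptake and intracellular handling, and 2 of efflux, out of 19009 genes measured in all. The rule that picked them uses gene names and no measured value, but the set was chosen with earlier results of these data known.

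Cells make cholesterol from acetyl-CoA along the mevalonate pathway, which passes through isoprenoid diphosphates to squalene and then through lanosterol to cholesterol. When sterols in the endoplasmic reticulum run low, SCAP escorts the transcription factor SREBP2 to the Golgi, where it is cut and released to switch on most genes of the pathway, and INSIG proteins hold this complex back when sterols are plentiful. White fat makes little cholesterol itself but stores a large pool of it, mostly free and in the lipid droplet, so uptake, esterification and efflux through ABC transporters also shape the balance.

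The 3 patDp/+ mice and 3 wild type mice were 9 to 10 weeks old and of the C57BL/6 background. patDp/+ animals carry an extra copy, inherited from the father, of the stretch of chromosome 7 that corresponds to the human 15q11-13 duplication region, and the series' title names late obesity and altered lipid metabolism in this model. All their tissues carry the duplication, so a difference in fat could begin elsewhere in the animal. RNA of each mouse was hybridised to 1 one-colour Agilent array, and the design text counts separate mice. The values below are log2 processed signals relative to the 75th percentile of the same array, so that 0 is that percentile and 1 unit is a doubling. A level is comparable across arrays for 1 probe, not between probes.

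Before the results, the arrays themselves were checked. The lowest correlation between arrays, across probes that are not independent replicates, was 0.987, and 26086 to 29509 of 41174 probes were well above background on each. Snrpn, a gene of the duplicated stretch, had 0.43, 0.77 and 0.61 in patDp/+ fat, against -0.77, -0.48 and -0.51 in wild type fat, as the labels have it. All 6 adipocyte markers were measured, and of the 4 markers of the epididymal epithelium 0 passed the filter on dim probes. Negative control spots had a net signal of 36.7 for patDp/+ replicate 1, and the other 5 arrays lay between 29.03 and 31.6. Each of 3 slides held 1 patDp/+ array and 1 wild type array with the same replicate number. Of the member probes, 0 lie between the probes of Herc2 and Mkrn3 that bound the duplicated stretch (chr7:63353727-69562792, mm9), and the nearest on that chromosome, those of Dhcr7, lie 81.5 Mb beyond it.

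Most members with a known promoter shared a sequence motif that the choice of genes did not use. Of the 29 genes, 23 had a promoter in the RefSeq table (GRCm38.p6), and the 250 bases before their start sites were searched on both strands for CCAAT, the box bound by NF-Y, a partner of SREBP2, and for TCACNCCAC, a sterol regulatory element consensus. Neither motif contains the other. CCAAT was present before 20 of the 23 member genes and before 15 of the 16 synthesis genes with a promoter, against 37.5% of all 27025 genes in the table. TCACNCCAC was present before Hmgcs1 only among the 23, against 1.22% of all genes. A match is a string of letters and not a proven site, and other forms of the sterol element were not searched. Shown here are the promoter of Hmgcs1, which alone held both motifs, and those of Lss, Nsdhl and Tm7sf2, the synthesis genes with a single listed promoter whose levels varied most between animals of 1 genotype. Capitals mark the motif letters, with ATTGG being CCAAT on the other strand, and the windows lie at chr13:119690101-119690350 (plus strand), chr10:76531355-76531604 (plus), chrX:72918271-72918520 (plus) and chr19:6067851-6068100 (minus), in that order.
Hmgcs1: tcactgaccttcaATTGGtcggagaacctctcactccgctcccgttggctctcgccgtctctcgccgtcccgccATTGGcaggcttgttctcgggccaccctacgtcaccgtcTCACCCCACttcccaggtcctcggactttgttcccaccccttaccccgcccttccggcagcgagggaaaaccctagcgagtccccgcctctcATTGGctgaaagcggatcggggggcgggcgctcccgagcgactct
Lss: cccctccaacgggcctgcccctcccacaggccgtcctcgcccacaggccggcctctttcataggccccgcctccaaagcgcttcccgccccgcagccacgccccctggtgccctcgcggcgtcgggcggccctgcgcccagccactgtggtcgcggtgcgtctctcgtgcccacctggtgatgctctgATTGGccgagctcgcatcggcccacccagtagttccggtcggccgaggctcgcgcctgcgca
Nsdhl: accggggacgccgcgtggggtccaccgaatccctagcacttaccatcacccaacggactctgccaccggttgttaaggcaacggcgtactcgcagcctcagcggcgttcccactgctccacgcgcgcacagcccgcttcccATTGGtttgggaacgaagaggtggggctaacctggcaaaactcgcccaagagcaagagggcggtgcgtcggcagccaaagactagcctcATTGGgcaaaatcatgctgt
Tm7sf2: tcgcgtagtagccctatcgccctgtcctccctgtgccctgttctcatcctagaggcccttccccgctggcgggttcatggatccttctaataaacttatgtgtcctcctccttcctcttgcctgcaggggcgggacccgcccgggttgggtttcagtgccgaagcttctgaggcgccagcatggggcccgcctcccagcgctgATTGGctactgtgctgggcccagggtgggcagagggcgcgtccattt

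No member of the set passed the test between patDp/+ and wild type fat. The array carried 56 probes for the 29 genes, of which 55 were well above background on at least 3 arrays and entered the comparison of all 27975 such probes with limma. A gene with several probes is represented by the brightest, and all probes of a gene are described. After Benjamini-Hochberg adjustment 0 of 27975 probes passed a threshold of 0.05 (0% of all probes), and the smallest adjusted p among the members was 0.951. Snrpn, of the duplicated stretch and 2.28-fold higher in patDp/+ fat, also missed it, with an adjusted limma p of 0.439. A miss of this threshold therefore does not show that a gene is unchanged. Without adjustment, 2 of 29 member genes had a limma p under 0.05, or 6.9%, against 5.57% of all genes. They were Abcg1, higher in patDp/+ fat like 2.68% of all genes, and Fdft1, lower like 2.89% of all genes. By probe the count was 3 of 55, or 5.45%, against 5.15% of all probes. The groups did not overlap for 3 member genes, Abcg1 above and Fdft1 and Cyp51 below, or 10.3% of members against 11.1% of all genes (5.29% above and 5.85% below). These shares lie near the background. The difference was negative for 21 of the 29 genes, or 72.4%, against 52.5% of all genes, and the median log2 difference was -0.06 for the members and -0.01 for all genes.

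**Figure D1:**
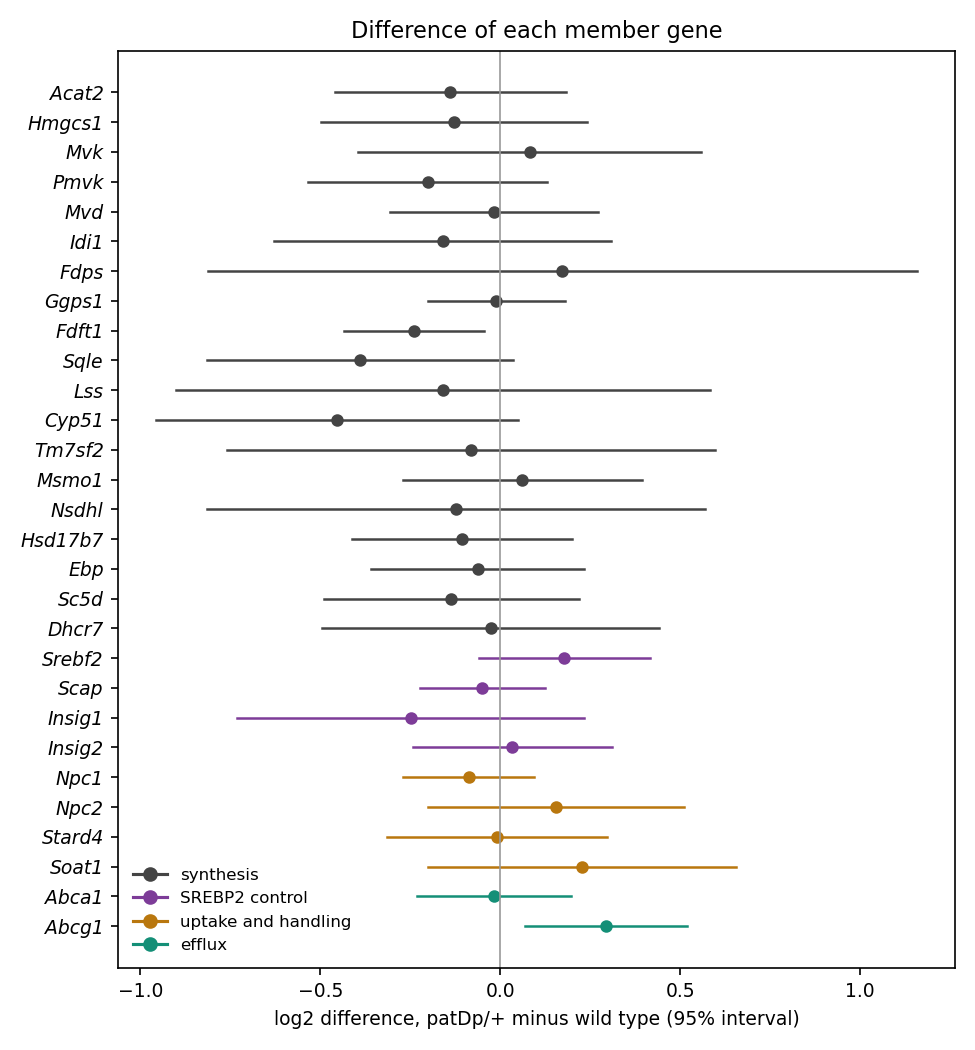
Log2 difference between patDp/+ and wild type fat (horizontal axis) for each of the 29 member genes, with the 95% interval from limma as a line and the role as colour. The intervals of Fdft1 (below 0) and Abcg1 (above 0) exclude 0 without adjustment, and those of all other members include it.

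The enzymes of synthesis had slightly negative differences as a group. Of the 19 genes, 16 had a negative difference and 3 a positive one, with a median of -0.12 and a range of -0.45 (Cyp51) to 0.17 (Fdps). At an unadjusted limma p under 0.05 there was 1 of 19 genes (5.26%), near the 5.57% of all genes. The 95% intervals reached between 0.19 (Ggps1) and 0.98 (Fdps) log2 units to either side of the estimate, so the precision differed several-fold between genes.

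Fdft1 encodes squalene synthase, the enzyme that joins farnesyl diphosphate molecules and commits the pathway to sterols. Its brighter probe read 1.39, 1.52 and 1.505 in patDp/+ replicates 1 to 3, against 1.68, 1.78 and 1.68 in wild type replicates 1 to 3. Every patDp/+ value lay below every wild type value, so the difference had to be negative on each slide (-0.28, -0.26 and -0.18). The log2 difference was -0.24 ± 0.08 (SE), a level 1.18-fold higher in wild type, with an unadjusted p of 0.0226 and an adjusted p of 0.951 in limma. Without patDp/+ replicate 1 or wild type replicate 2 the unadjusted p was 0.0774 or 0.068.

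The other probe of Fdft1 gave the opposite sign. It was dim, at -4.06, -4.31 and -5.05 in patDp/+ fat, against -4.88, -4.80 and -4.53 in wild type fat. The groups overlapped, and the difference was 0.26 ± 0.26 (SE), with an unadjusted limma p of 0.35. When an array was left out, the difference of this probe ranged from 0.06 to 0.55. The highest value came without patDp/+ replicate 3, with an unadjusted limma p of 0.0122, where 9.19% of all genes had a p under 0.05. When the 2 probes were averaged, the difference of Fdft1 was 0.01. The brighter probe (chr14:63765769-63770009, mm9, minus strand) spans 4241 bases of genome with its 60 bases, so its sequence is joined across an intron, whereas the dim probe (chr14:63764562-63764621) is unbroken and lies further along the transcript. The sequence of the brighter probe is shown because the call on Fdft1 rests on it, with no letters marked.
Fdft1 probe: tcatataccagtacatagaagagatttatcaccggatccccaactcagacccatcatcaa

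Cyp51, the lanosterol demethylase, had negative differences with all 3 of its probes. The brightest (chr5:4083236-4083295, mm9) read -1.51, -1.94 and -1.36 in patDp/+ fat, against -1.32, -0.81 and -1.33 in wild type fat. The groups did not overlap, but patDp/+ replicate 3 and wild type replicates 1 and 3 lay close together. The difference was -0.45 ± 0.21 (SE), with an unadjusted limma p of 0.0695. The other probes gave -0.36 ± 0.13 and -0.42 ± 0.23, with unadjusted limma p of 0.0336 and 0.113. With the slide as a block the p of 0.0336 became 0.0656. With normexp background correction the 3 probes gave -0.27, -0.06 and 0.01. Without that correction, most of the difference of the brightest probe came from slide 2 (-1.14), against -0.19 on slide 1 and -0.03 on slide 3. On slides 1 to 3 the other probes gave -0.44, -0.63 and -0.02, and -0.13, -1.16 and 0.04. Without patDp/+ replicate 2 or wild type replicate 2, the arrays of slide 2, the brightest probe gave -0.28 in either case. The probe with the difference of -0.42 (chr5:4092033-4092439, minus strand) also spans more genome than its length and is shown as a second transcript probe that crosses an intron.
Cyp51 probe: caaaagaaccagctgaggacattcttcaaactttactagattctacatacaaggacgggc

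Sqle, squalene epoxidase, is the oxygen-dependent enzyme between squalene synthase and lanosterol synthase and a rate-limiting step. It read 0.51, -0.10 and 0.15 in patDp/+ fat, against 0.46, 0.78 and 0.48 in wild type fat. The array of patDp/+ replicate 1 lay among the wild type arrays and the other patDp/+ arrays lay below them. The difference was -0.39 ± 0.18 (SE, unadjusted p = 0.067 in limma), and -0.25 without patDp/+ replicate 2.

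Lss, lanosterol synthase, closes the sterol ring. Its level was -0.27, -0.93 and -0.37 in patDp/+ fat, against -0.89, 0.20 and -0.40 in wild type fat. All patDp/+ values lay within the wild type range apart from patDp/+ replicate 2 just below it. The difference of -0.16 ± 0.31 (SE) was smaller than the within-group SD of 0.46, and the second probe gave -0.07 ± 0.31.

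**Figure D2:**
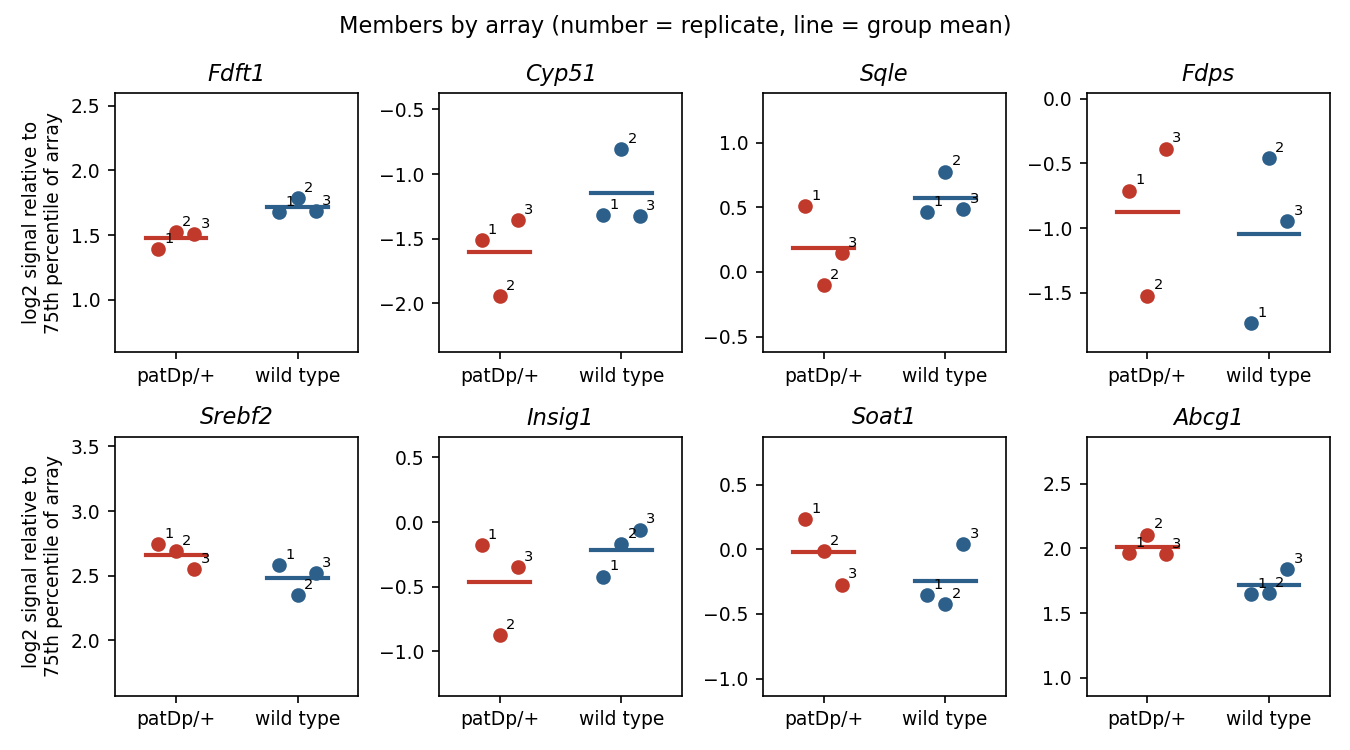
Log2 signal relative to the 75th percentile of the array (vertical axis, 2 units tall in every panel) of 8 members on each array, numbered by replicate, with group means as lines. The groups separate for Fdft1, Cyp51 and Abcg1, and Fdps shows animals of 1 genotype more than 1 unit apart.

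The early enzymes build mevalonate and its phosphates. Acat2, the cytosolic thiolase that makes acetoacetyl-CoA, read 0.60, 0.57 and 0.98 in patDp/+ fat, against 0.77, 0.96 and 0.84 in wild type fat, a difference of -0.14 ± 0.13 (SE) with overlapping groups. Hmgcs1, the cytosolic HMG-CoA synthase, read 4.54, 4.26 and 4.01 in patDp/+ fat, against 4.42, 4.26 and 4.52 in wild type fat. Here patDp/+ replicate 3 was the lowest array, and the difference was -0.13 ± 0.15. The dim other probes of Hmgcs1 gave -0.47 ± 0.25 and -0.31 ± 0.33, and all 3 are placed on an unassigned piece of chromosome 13 in mm9.

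Mvk, mevalonate kinase, read 0.30, -0.08 and 0.26 in patDp/+ fat, against -0.32, 0.31 and 0.23 in wild type fat. Wild type replicate 1 and patDp/+ replicate 2 were the low arrays, and the probes gave 0.08 ± 0.20 and -0.06 ± 0.14 (SE). Pmvk, phosphomevalonate kinase, read 3.65, 3.40 and 3.85 in patDp/+ fat, against 3.68, 3.94 and 3.89 in wild type fat. Its groups overlapped, although the difference was negative on each slide (-0.03, -0.53 and -0.04) and larger than the within-group SD of 0.18. The neighbouring probes gave -0.20 ± 0.14 and -0.22 ± 0.12, and the brighter gave -0.32 with normexp background correction, with an unadjusted limma p of 0.0427. Mvd, which decarboxylates mevalonate diphosphate, had -0.02 ± 0.12 from its only probe.

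The isoprenoid branch held the gene that varied most and the gene that varied least among the enzymes. Fdps, farnesyl diphosphate synthase, read -0.71, -1.52 and -0.38 in patDp/+ fat, against -1.73, -0.46 and -0.95 in wild type fat. Each genotype had 1 low animal, patDp/+ replicate 2 and wild type replicate 1, and the within-group SD was 0.62, against a median of 0.15 over all genes. The difference of 0.17 ± 0.41 (SE) had a 95% interval of -0.81 to 1.16, which neither shows nor bounds closely a change of this gene. The other probe of Fdps, which was dim, gave 0.14 ± 0.23.

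Ggps1, which makes geranylgeranyl diphosphate for protein prenylation and is a branch away from sterols, read 0.67, 0.71 and 0.71 in patDp/+ fat, against 0.80, 0.64 and 0.67 in wild type fat. Its 3 probes gave differences of -0.01 to -0.05 with standard errors of 0.08 to 0.11, the interval of the brightest being -0.20 to 0.18. Idi1, the isomerase that supplies both building blocks of farnesyl diphosphate, read 1.82, 1.34 and 1.67 in patDp/+ fat, against 1.46, 2.08 and 1.77 in wild type fat. It had low values in the same 2 animals as Fdps, and its probes gave -0.16 ± 0.19 and -0.24 ± 0.19.

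Among the late enzymes, which turn lanosterol into cholesterol, patDp/+ replicate 2 and wild type replicate 1 were the 2 lowest arrays for Nsdhl, Dhcr7 and Tm7sf2, but not for every gene. Nsdhl, a sterol dehydrogenase that removes carbons at position 4 together with Msmo1, read 0.82, 0.41 and 0.99 in patDp/+ fat, against 0.28, 1.29 and 1.03 in wild type fat. Its 4 probes gave -0.09 to -0.18, with standard errors of 0.13 to 0.29. Dhcr7, which catalyses the last step of the pathway through 7-dehydrocholesterol, read 1.75, 1.38 and 1.67 in patDp/+ fat, against 1.30, 1.99 and 1.60 in wild type fat, a difference of -0.03 ± 0.19. Its dimmer probe gave 0.00 ± 0.25.

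Tm7sf2, a sterol reductase that acts on the double bond at carbon 14, read 1.55, 0.95 and 1.95 in patDp/+ fat, against 1.21, 1.77 and 1.70 in wild type fat. Both of the patDp/+ extremes lay outside the wild type range, and the difference was -0.08 ± 0.28 (SE). Hsd17b7, the 3-ketosteroid reductase of the pathway, read 0.72, 0.33 and 0.43 in patDp/+ fat, against 0.54, 0.72 and 0.54 in wild type fat, a difference of -0.11 ± 0.13. The second probe of Hsd17b7 gave 0.36 ± 0.31, where wild type replicate 1 alone read -2.68 and the other arrays lay between -1.82 and -1.35. Sc5d, which introduces the C5 double bond, read 3.55, 3.25 and 3.17 in patDp/+ fat, against 3.40, 3.68 and 3.29 in wild type fat, and its probes gave -0.14 ± 0.15 and -0.07 ± 0.14.

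Msmo1, the C4 sterol methyl oxidase, had a difference of 0.06 ± 0.14 (SE) from its only probe. Ebp, which moves the C8 double bond, was measured in 2 patDp/+ animals, since its spot on the array of patDp/+ replicate 1 was marked as non-uniform and left out of the fit. It read 4.53 and 4.79 in patDp/+ replicates 2 and 3, against 4.80, 4.69 and 4.68 in wild type fat, and the difference was -0.06 ± 0.12. With the marked spot, which read 2.94, the difference was -0.64. In the authors' deposited table patDp/+ replicate 1 had 12.31 for this probe on the log2 scale, and the other arrays 14.12 to 14.35, which gave a difference of -0.75.

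Many synthesis genes were low or high in the same animals. The difference between genotypes was larger than the within-group SD for 4 of the 19 genes, and for 5853 of all 19009 genes. For each gene the mean over all arrays was subtracted, and the median over the 19 genes was taken on each array. It was 0.13, -0.22 and 0.05 in patDp/+ replicates 1 to 3, against -0.02, 0.20 and 0.05 in wild type replicates 1 to 3, whereas over all genes these medians lay between -0.02 and 0.01. patDp/+ replicate 2 was below the gene's own mean for 18 of 19 genes and was the lowest array for 10 of them (52.6%), against 17.5% of all genes. Wild type replicate 2 was the highest array for 12 of the 19, and for 3571 of all 19009 genes. Wild type replicate 1 was divided, being more than 0.3 below the mean for Fdps, Nsdhl, Lss, Mvk, Tm7sf2 and Dhcr7 and above the mean for 8 of the genes. The median within-group SD was 0.21 for the synthesis genes, against 0.15 over all genes. These counts describe 6 animals, and genes of a pathway measured on 1 array are not independent of one another.

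**Figure D3:**
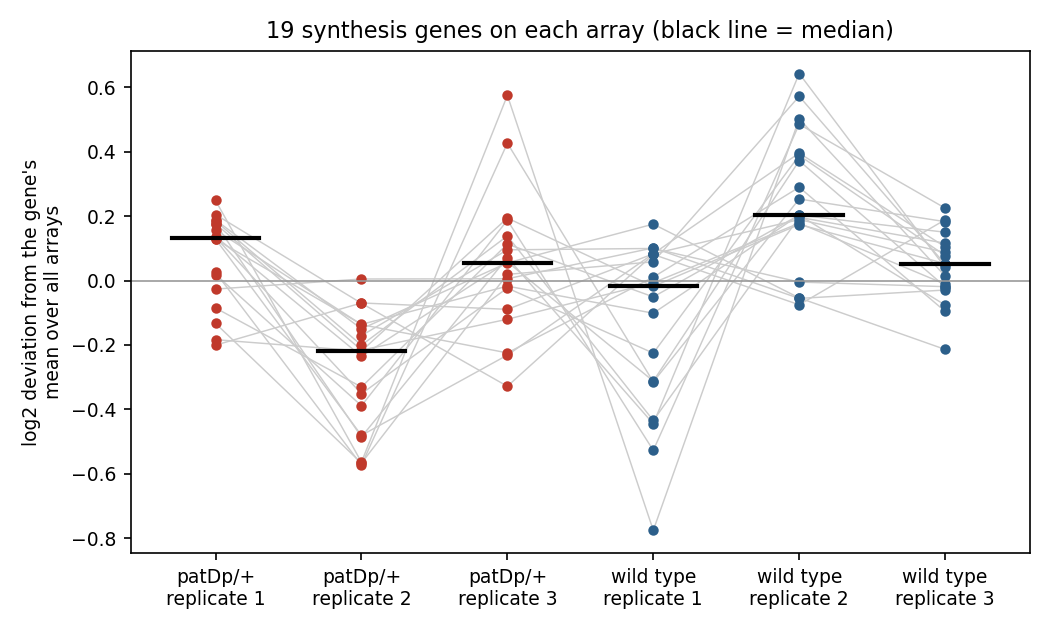
Deviation of each of the 19 synthesis genes from its own mean over the arrays (vertical axis, log2) on each array, with a grey line per gene and a black line for the median. patDp/+ replicate 2 has the lowest median, -0.22, and wild type replicate 2 the highest, 0.20, while the other arrays of each genotype lie between them.

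Separate probes of a gene shared this pattern in several cases. For Lss the difference within slides 1, 2 and 3 was 0.62, -1.13 and 0.03 with the brighter probe, and 0.71, -1.01 and 0.09 with the other. For Nsdhl it was 0.55, -0.87 and -0.04 with the brightest probe, and 0.57, -0.99 and -0.11 with the intron-crossing probe. For Dhcr7 it was 0.45, -0.61 and 0.08, and 0.73, -0.66 and -0.07 with the dimmer probe. Not all probes followed it. The dimmest probe of Nsdhl gave 0.00, -0.15 and -0.14, and the dimmer probe of Fdps gave -0.02, 0.21 and 0.24 where the brighter one gave 1.02, -1.07 and 0.56.

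Within slides, the direction of the synthesis genes was not constant. The median difference was 0.17 on slide 1, -0.43 on slide 2 and 0.02 on slide 3, where all genes had medians of 0.02, -0.02 and -0.01. On slide 1, 5 of 18 genes were lower in patDp/+ fat, against 47.1% of all genes. On slide 2 this was 17 of 19, against 53.4%, and on slide 3 it was 9 of 19, against 53.6%. Fdft1, Cyp51 and Pmvk were lower on all 3 slides, as must hold for Fdft1 and Cyp51, whose groups did not overlap. Of the 18 genes with a value on each slide, 0 were higher on all of them. The share of all genes with 1 direction on all 3 slides was not determined, so these counts have no background. The 16 of 19 negative differences thus rested on slide 2. Without patDp/+ replicate 2 there were 10 negative differences among the 19, and without wild type replicate 2 there were 11.

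**Figure D4:**
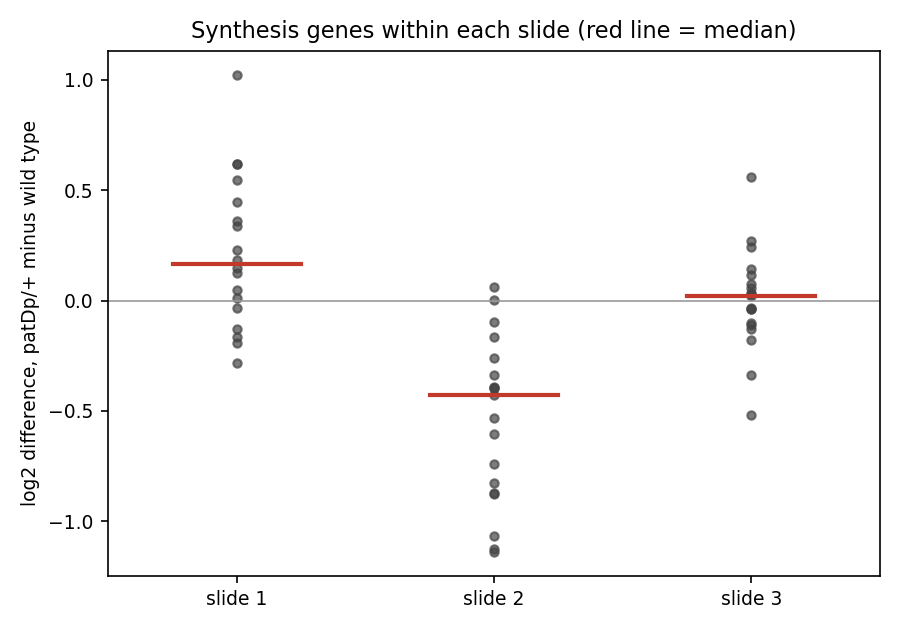
Log2 difference between the patDp/+ and the wild type array of each slide (vertical axis) for the synthesis genes, with the median as a red line. The median is 0.17 on slide 1, -0.43 on slide 2 and 0.02 on slide 3.

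The genes that control SREBP2 had no common direction. Of 4 genes, 2 were lower and 2 higher, with a median difference of -0.01. An unadjusted limma p under 0.05 was reached by 0 of 4, against 5.57% of all genes. Srebf2, the gene of SREBP2 itself, read 2.75, 2.69 and 2.55 in patDp/+ fat, against 2.58, 2.35 and 2.52 in wild type fat, with its brightest probe. Its values overlapped only between patDp/+ replicate 3 and wild type replicate 1, and the difference was 0.18 ± 0.10 (SE, unadjusted p = 0.118 in limma), higher on each slide. The other measured probes of Srebf2 gave 0.02 ± 0.12 and 0.03 ± 0.24, and 1 further probe was not well above background on any array.

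Insig1, the retention protein gene that is itself a target of SREBP2, read -0.18, -0.87 and -0.35 in patDp/+ fat, against -0.42, -0.17 and -0.06 in wild type fat. patDp/+ replicate 2 was again the lowest, and the probes gave -0.25 ± 0.20 and -0.24 ± 0.29 (SE). Insig2, the second retention protein gene, read 2.83, 2.84 and 3.13 in patDp/+ fat, against 2.78, 2.95 and 2.96 in wild type fat, and its probes gave 0.03 ± 0.11 and -0.07 ± 0.09. Scap, the escort of SREBP2, read 2.92, 2.90 and 2.99 in patDp/+ fat, against 3.02, 2.98 and 2.97 in wild type fat. It had the tightest interval of this group, -0.22 to 0.13 around a difference of -0.05.

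Among the genes of uptake and handling, 2 of 4 were higher and 2 lower, with a median difference of 0.07. An unadjusted limma p under 0.05 was reached by 0 of 4, against 5.57% of all genes. Soat1, which esterifies cholesterol for storage, had positive differences with all 3 probes. Its brightest probe read 0.23, -0.02 and -0.27 in patDp/+ fat, against -0.35, -0.42 and 0.04 in wild type fat. The difference was 0.23 ± 0.18 (SE, unadjusted p = 0.245 in limma), and 0.34 ± 0.17 and 0.35 ± 0.23 with the dimmer probes. It was positive on slides 1 and 2 (0.59 and 0.41) and negative on slide 3 (-0.31).

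Npc2 carries cholesterol within the lysosome and hands it to Npc1, the membrane protein that exports it. Npc2 read 5.66, 5.64 and 5.95 in patDp/+ fat, against 5.41, 5.85 and 5.52 in wild type fat, a difference of 0.15 ± 0.15 (SE) with overlapping groups. Npc1 read -0.68, -0.80 and -0.76 in patDp/+ fat, against -0.64, -0.70 and -0.64 in wild type fat. It was lower on each slide, yet by 0.12 at most, and the interval of the difference was -0.27 to 0.09. Stard4, a sterol transfer protein between membranes, read -0.92, -1.25 and -1.10 in patDp/+ fat, against -0.92, -1.08 and -1.24 in wild type fat. The difference was -0.01 ± 0.13 with its brightest probe, and the other 2, well above background on 5 and 4 arrays, gave -0.19 ± 0.37 and 0.22 ± 0.33.

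Abcg1, the transporter that passes cholesterol to high-density lipoprotein particles, had the smallest p of the set. Its only probe (chr17:31252580-31252639, mm9, plus strand) read 1.96, 2.11 and 1.96 in patDp/+ fat, against 1.65, 1.66 and 1.84 in wild type fat. Every patDp/+ animal lay above every wild type animal, so the difference had to be positive on slides 1, 2 and 3 (0.32, 0.45 and 0.11). The log2 difference was 0.29 ± 0.09 (SE), or 1.23-fold, with a 95% interval of 0.07 to 0.52, an unadjusted p of 0.0183 and an adjusted p of 0.951 in limma. The unadjusted p was 0.0651 without patDp/+ replicate 2, 0.0544 without wild type replicate 1, 0.0557 without wild type replicate 2 and 0.217 with normexp background correction, where the difference was 0.17.

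Abca1, which loads cholesterol onto apolipoprotein A-I and is induced by the same sterol-sensing LXR receptors, read 3.27, 3.46 and 3.45 in patDp/+ fat, against 3.47, 3.35 and 3.42 in wild type fat. Its groups overlapped, and the difference was -0.02 ± 0.09 (SE) with an interval of -0.23 to 0.20. Whether the differences of the 2 transporters differ from each other was not tested.

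Macrophages also express genes of handling and efflux. Abcg1, Soat1 and Npc2 are among them, with differences of 0.29, 0.23 and 0.15. So are Abca1 and Npc1, with -0.02 and -0.09. In bulk tissue, fewer cells of a type and less RNA per cell cannot be told apart. All 8 macrophage markers had positive differences, with a median of 0.28. At an unadjusted limma p under 0.05 there were 0 of 8, against 5.57% of all genes. The differences were positive for all 8 on slides 1 and 2. On slide 3 they were negative for Cd68, Itgam and Lyz2 (-0.23, -0.09 and -0.04) and at most 0.09 for the others. Their summed signal, relative to the 75th percentile of the array, was 241 to 309 in patDp/+ fat, against 227 to 250 in wild type fat. Such a sum mostly follows its brightest probes and not the marker set evenly. Here that is the probe of Lyz2, whose difference of 0.14 was the smallest of the 8. All 8 were above background. The 6 adipocyte markers had 5 negative differences and a median of -0.09. Their summed signal, mostly from Fabp4, Cidec and Adipoq, was 1544 to 1693 in patDp/+ fat, against 1571 to 1837 in wild type fat. Of other cell types, all 4 B cell markers had negative differences (median -0.67). At an unadjusted limma p under 0.05 there was 1 of 4, Cd79b, lower like 2.89% of all genes. Their summed signal, mostly from Cd79b, was 0.692 to 1.64 in patDp/+ fat, against 1.497 to 2.13 in wild type fat. All 4 endothelial markers were also negative (median -0.20), all 3 mesothelial markers positive (0.16), and 4 of 5 fibroblast and progenitor markers positive (0.03). Over all genes 52.5% of differences were negative, and markers of 1 cell type are not independent of one another. The part of cell composition in the values of the members was not tested.

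Beyond the 29 genes, a wider list of the pathway held 29 further genes, of which 28 were measured. Differences were positive for 15 and negative for 13, with a median of 0.01, and 0 of 28 passed the adjusted threshold in limma.

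The brightness of a probe bore on its difference when the background was treated otherwise. With normexp correction, all 12 member probes with a mean level below -2 had a higher difference than with the processed signal, their median being 0.45 in place of 0.01. Over all kept probes below that level the median was 0.50 with normexp and -0.01 with the processed signal. The 43 brighter member probes had a median of -0.11 with normexp and -0.07 with the processed signal. The negative control signal was highest on the array of patDp/+ replicate 1, and its part in this shift was not tested.

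**Figure D5:**
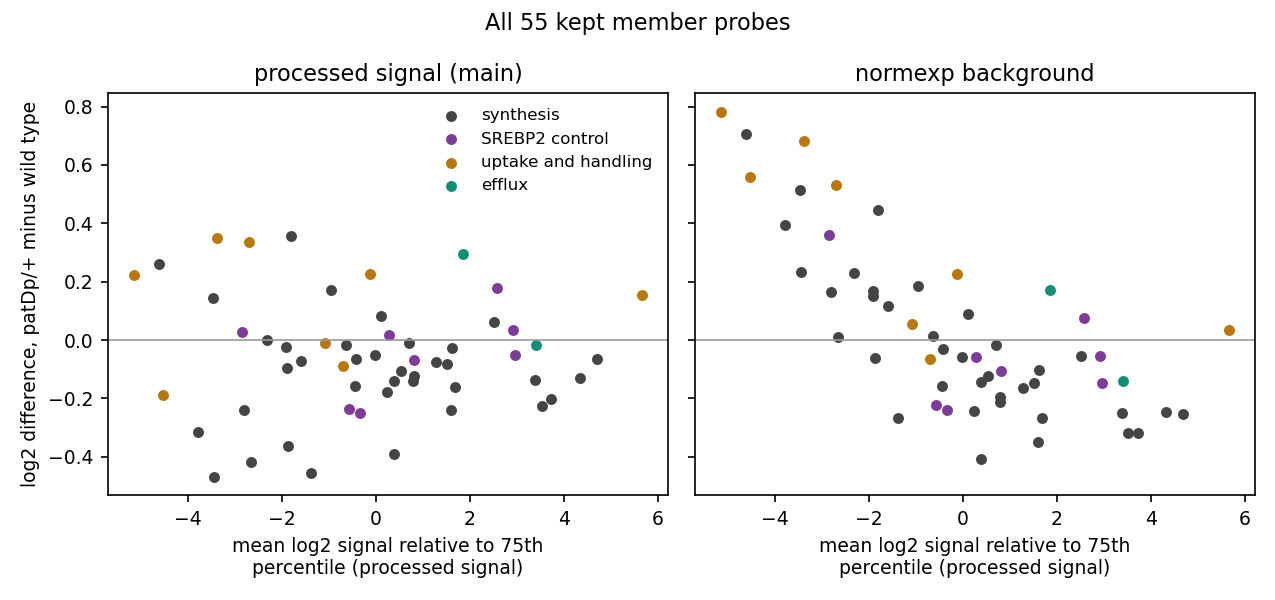
Log2 difference between patDp/+ and wild type fat (vertical axis) against the mean log2 level of the probe (horizontal axis) for all 55 kept member probes, with the processed signal on the left and normexp background correction on the right. The 12 probes below a level of -2 have a median of 0.01 on the left and 0.45 on the right.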

How the data were processed

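Scanner output came from Feature Extraction 9.5.1.1, per the file headers. Its deposited processed intensity is background-subtracted and detrended within each array, with no scaling between arrays; raw spot and local background intensity served the normexp alternative. Of tools, the submitters' processing notes list limma 3.18.2 and Agilent Feature Extraction 9.5 without saying what each did. A further deposited table of log2 values, whose columns share their quantiles, was an alternative; no source states its background correction. Labelling used 200 ng of total RNA, per the labels.

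Processed intensity was divided by the 75th percentile of its array's non-control probes and put on the log2 scale. Outlier-marked spots were left out and spots of a probe averaged. Probes well above background on at least 3 of 6 arrays were kept, 27975 of 41174. Groups from the sample titles were compared with limma 3.58.1 (R 4.3.3), two-sided, on all kept probes, with Benjamini-Hochberg adjustment. The procedure was tested on simulated data. Precision is limited by 3 arrays a group. All members were named with every probe, and the wider list was given by its counts, with a result on single genes of it not reported here. Members and lists were chosen with earlier results of these data known. Same-numbered arrays share a slide, per the file headers, and their deviations from group means correlated at 0.12, -0.10 and -0.03. Alternatives covered background, normalization, filters, probe summary, blocks, weights, variance model and leaving out each array.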

Additional observations from a re-analysis of the deposited data

How the results depend on the processing

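Under all 17 alternatives 0 probes passed the adjusted threshold in limma. The number of member genes at an unadjusted p under 0.05, which was 2, became 1 when the probes of a gene were averaged (5.41% of all genes), 3 with array weights, which added Cyp51 (8.26%), and 4 with a trended robust variance (6.18%). It ranged from 0 to 4 when an array was left out. It was 0 without wild type replicate 2 (6.11% of all genes) and 1 without patDp/+ replicate 2 (3.88%) or wild type replicate 1 (4.25%). Without patDp/+ replicate 3 it was 4, where 9.19% of all genes were counted. Over all probes this count was 1442, and 2432 without patDp/+ replicate 3. With normexp the count of member genes stayed at 2 (4.01% of all genes), with Pmvk in place of Abcg1. With the replicate block, which is also the slide block, the count was 2 (5.06% of all genes), and 1318 over all probes. With normexp the median of the SREBP2 control genes was -0.10 and that of the efflux genes 0.016. Leaving out an array gave medians of -0.19 to -0.016 for synthesis, -0.071 to 0.024 for SREBP2 control, 0.0036 to 0.14 for uptake and handling, and 0.097 to 0.18 for efflux. Some single differences changed sign. With normexp these were Mvd (0.015), Msmo1 (-0.056), Insig2 (-0.055), Stard4 (0.055) and the intron-crossing probe of Cyp51 (0.010). In the deposited table Ggps1 gave 0.025. Averaging probes gave 0.011 for Fdft1, 0.12 for Hsd17b7, -0.018 for Insig2 and 0.0084 for Stard4. Array weights gave -0.034 for Mvk, -0.038 for Fdps, 0.0039 for Ggps1, -0.031 for Insig2 and 0.030 for Stard4. Leaving out an array gave ranges across 0 for Hmgcs1 (-0.26 to 0.0023), Mvk (-0.12 to 0.20), Mvd (-0.085 to 0.080), Fdps (-0.17 to 0.498), Ggps1 (-0.041 to 0.037), Lss (-0.42 to 0.12), Tm7sf2 (-0.31 to 0.19), Msmo1 (-0.030 to 0.16), Nsdhl (-0.42 to 0.090), Ebp (-0.20 to 0.070), Dhcr7 (-0.19 to 0.15), Insig2 (-0.066 to 0.086), Stard4 (-0.094 to 0.073) and Abca1 (-0.051 to 0.043). The cause of these changes was not tested. Dim probes near background, such as the second probe of Fdft1, limit what can be read from them.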
